A study of Mus musculus with 6 samples.

Results

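Immunoglobulin genes were examined in heart RNA of 2-week-old mice with and without a Cre-driven Cfp1 deletion in cardiomyocytes. The set takes every gene of the deposited table whose symbol starts with Igh followed by v, d, j, m, g, a or e, or with Igk or Igl followed by v, j or c, without Ighmbp2, and adds Jchain. It holds 190 of the 26881 genes in the table. Of these, 84 are heavy variable genes, 81 kappa variable genes, 3 lambda variable genes, 7 heavy constant genes, 1 kappa constant gene and 3 lambda constant genes. The rest are 3 heavy, 4 kappa and 2 lambda joining segments, 1 heavy diversity segment and Jchain. The rule uses names only. The table lists genes above 0 in at least 1 library, and 73 of the 262 genes that carry such names in GENCODE release M21 are not among them.

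The Cfp1-cKO group consists of 3 heart libraries from Myh6-Cre: Cfp1 flox/flox mice, and the WT group of 3 heart libraries from mice labelled wild type, all at 2 weeks of age. The parent lines are described as C57BL/6. Cre is driven by the Myh6 promoter, which is active in cardiomyocytes and is not a promoter of blood cells. Littermates from the cross described carry at least 1 floxed Cfp1 allele. The paper names WT littermates as the controls of its growth comparison, and does not repeat this for the RNA libraries. The sources used here do not give the genotype of the WT mice or how many hearts made up a sample, and p-values therefore cover only the spread between these libraries. Blood was drained from the hearts before freezing. Values are FPKM, fragments per kilobase of exon scaled to the library total. The library totals worked back from them were between 16672652 and 19481847 fragments in Cfp1-cKO hearts and between 18007474 and 22700811 in WT hearts. Cxxc1, which encodes Cfp1, had 8.02, 9.94 and 8.74 FPKM in Cfp1-cKO hearts, against 9.66, 12.9 and 10.03 FPKM in WT hearts, ranges that overlap. Its log2 fold change, given here and elsewhere with the standard error, was -0.26 ± 0.16 (limma adjusted p = 0.249). All 12 cardiomyocyte genes on a list of markers were measured, and their FPKM summed to between 10762 and 14469 in Cfp1-cKO hearts and between 13151 and 21639 in WT hearts. By the thresholds given below, 5 of the 12 were called lower in Cfp1-cKO hearts and 0 higher. Of all tested genes, 1.68% were called lower and 21.1% higher. The median log2 fold change of the 12 was -0.39. Genes of the lung epithelium were present in the Cfp1-cKO libraries: 14 listed genes summed to 4602, 3364 and 5108 FPKM in Cfp1-cKO hearts and to 0.418, 5.001 and 0.359 FPKM in WT hearts.

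An antibody is built from heavy and light chains, each with a variable part that binds antigen and a constant part that sets its class. A B cell joins a variable segment to a joining segment in each chain, with a diversity segment between them in the heavy chain, and its progeny keep that choice. A B cell makes IgM and IgD before class switching places the same variable part on IgG, IgA or IgE. Plasma cells secrete antibody and fill much of their RNA with immunoglobulin transcripts. Jchain, the joining chain, links the units of IgM and IgA polymers.

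The sequences that follow are stretches of up to 300 bases of the coding sequences of the kappa constant gene and of the variable genes that led a locus in at least 1 Cfp1-cKO library, because how alike these genes are bears on which of them a fragment was counted for. They were taken from the GENCODE release M21 transcripts (GRCm38) and are written on the strand of the gene. Capitals mark the longest stretch shared letter for letter with any other immunoglobulin gene of that annotation. Igkc lies on chromosome 6 from 70726435 to 70726966, Igkv1-110 on chromosome 6 from 68270485 to 68271267 and Igkv4-57 on chromosome 6 from 69575975 to 69576500. Ighv1-54 lies on chromosome 12 from 115193675 to 115194134, Ighv1-26 on chromosome 12 from 114788372 to 114788805, Ighv1-72 on chromosome 12 from 115757984 to 115758461 and Iglv1 on chromosome 16 from 19085017 to 19085500.
Igkc: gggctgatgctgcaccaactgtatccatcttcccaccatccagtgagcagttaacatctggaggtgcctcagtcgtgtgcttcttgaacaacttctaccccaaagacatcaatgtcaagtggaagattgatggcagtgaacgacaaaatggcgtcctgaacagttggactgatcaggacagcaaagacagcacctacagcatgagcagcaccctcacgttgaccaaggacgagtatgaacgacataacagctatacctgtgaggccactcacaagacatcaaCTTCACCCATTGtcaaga
Igkv1-110: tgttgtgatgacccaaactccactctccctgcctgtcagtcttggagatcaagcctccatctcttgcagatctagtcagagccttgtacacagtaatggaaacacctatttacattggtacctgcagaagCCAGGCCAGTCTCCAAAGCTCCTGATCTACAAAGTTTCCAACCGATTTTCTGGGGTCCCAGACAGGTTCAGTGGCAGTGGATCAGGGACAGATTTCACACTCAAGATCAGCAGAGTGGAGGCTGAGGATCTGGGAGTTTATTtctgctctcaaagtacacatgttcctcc
Igkv4-57: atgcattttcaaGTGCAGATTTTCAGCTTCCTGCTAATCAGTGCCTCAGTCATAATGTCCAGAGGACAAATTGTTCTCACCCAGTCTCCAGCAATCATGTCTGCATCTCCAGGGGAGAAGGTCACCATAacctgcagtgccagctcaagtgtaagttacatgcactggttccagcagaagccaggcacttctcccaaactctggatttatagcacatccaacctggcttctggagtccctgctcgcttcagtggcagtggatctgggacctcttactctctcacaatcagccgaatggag
Ighv1-54: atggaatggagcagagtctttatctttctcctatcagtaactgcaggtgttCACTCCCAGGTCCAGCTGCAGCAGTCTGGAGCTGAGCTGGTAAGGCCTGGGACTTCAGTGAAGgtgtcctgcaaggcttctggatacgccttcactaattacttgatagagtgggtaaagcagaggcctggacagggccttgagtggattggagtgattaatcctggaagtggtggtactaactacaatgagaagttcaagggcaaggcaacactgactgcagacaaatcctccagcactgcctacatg
Ighv1-26: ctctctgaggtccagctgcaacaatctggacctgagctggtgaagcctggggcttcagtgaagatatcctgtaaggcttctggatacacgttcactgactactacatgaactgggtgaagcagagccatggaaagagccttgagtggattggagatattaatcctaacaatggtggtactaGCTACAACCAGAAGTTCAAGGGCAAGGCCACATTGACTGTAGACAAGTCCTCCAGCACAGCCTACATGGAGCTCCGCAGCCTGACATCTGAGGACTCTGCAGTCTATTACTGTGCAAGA
Ighv1-72: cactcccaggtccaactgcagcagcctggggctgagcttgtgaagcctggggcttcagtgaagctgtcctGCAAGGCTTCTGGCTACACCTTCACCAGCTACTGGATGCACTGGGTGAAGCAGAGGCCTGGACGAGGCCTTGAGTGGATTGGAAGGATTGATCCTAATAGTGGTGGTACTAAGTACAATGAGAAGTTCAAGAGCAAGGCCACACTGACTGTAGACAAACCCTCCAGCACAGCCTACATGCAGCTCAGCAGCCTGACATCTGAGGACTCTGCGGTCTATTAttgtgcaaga
Iglv1: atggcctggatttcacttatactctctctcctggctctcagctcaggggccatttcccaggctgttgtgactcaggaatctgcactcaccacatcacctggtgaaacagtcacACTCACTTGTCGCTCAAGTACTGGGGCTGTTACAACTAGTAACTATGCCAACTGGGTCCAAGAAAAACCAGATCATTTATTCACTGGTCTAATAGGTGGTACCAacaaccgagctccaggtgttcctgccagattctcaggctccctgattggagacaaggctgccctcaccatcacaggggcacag

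Igkc shared no more than 12 bases in a row with another immunoglobulin gene. Igkv1-110 shared 142 bases with Igkv1-117, to which it is 97.2% identical, and Igkv4-57 shared 117 with Igkv4-61. Ighv1-54 shared 63 bases with Ighv1-63, Ighv1-26 shared 119 with Ighv1-34, and Iglv1 shared 104 with Iglv2. Ighv1-72 shared 220 bases with Ighv1-62-3, the longest stretch of the genes printed here, and is 99.2% identical to it. A stretch of at least 100 bases was shared by 29 of 84 heavy variable genes, 35 of 81 kappa variable genes and 2 of 3 lambda variable genes, and by none of the constant genes. Counts of single variable genes are therefore uncertain where a near copy exists, while sums over a locus and the constant genes are less exposed to this.

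Immunoglobulin transcripts were abundant in all 3 Cfp1-cKO libraries and close to the detection limit in WT. The 190 genes together took 9183, 2408 and 3211 fragments in Cfp1-cKO hearts and 30, 17 and 68 fragments in WT hearts. This is 0.0471%, 0.0144% and 0.0178% of all fragments in Cfp1-cKO hearts and 0.000132%, 9.02e-05% and 0.000378% in WT hearts. The lowest Cfp1-cKO library thus lay far above the highest WT library, and Cfp1-cKO 1 held more than either of the other Cfp1-cKO libraries. The summed FPKM was 361 ± 244 in Cfp1-cKO hearts and 3.20 ± 3.25 in WT hearts (SD, n = 3 each). In bulk RNA, a different number of antibody-producing cells and a different amount of immunoglobulin RNA per cell cannot be told apart. The 14 lung epithelium genes given above moved with the groups in the same direction, and their part in the immunoglobulin values was not tested.

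Of the 190 genes, 173 were at 0 in every WT library and 17 were above 0 in at least 1 of them. In the Cfp1-cKO libraries 83 genes were above 0 in all 3, 53 in 2 and 51 in 1, and 3 genes (Ighd2-4, Ighj4 and Ighv1-71) were seen in WT only. Every Cfp1-cKO value lay above every WT value for 82 of the 190 genes, which is to be read against 33.1% of all genes in the table. A test was run on log2(FPKM + 1) with limma over the 11017 genes that averaged 1 FPKM or more, with calls made at a Benjamini-Hochberg p below 0.05 and a log2 fold change beyond 0.5 in size. On this scale the change of a low gene is understated. Of the 27 immunoglobulin genes that reached that mean, 22 were called higher and 0 lower, where 21.1% of all tested genes were called higher and 1.68% lower. At an unadjusted p under 0.05 the number lower was 0, and voom of limma on the fragments called 0 lower. Their median log2 fold change was 2.28 and that of all tested genes 0.35. These 27 reached the mean through their Cfp1-cKO values, so the count describes them and is no support for a difference. With a mean of at least 0.1 FPKM, 139 were tested and 50 called higher, against 14.9% of all tested genes, and none was called lower, against 0.944%. Most of these 139 likewise reached that mean through their Cfp1-cKO values, so this count is no support for a difference either. With no minimum, 31 of 190 were called higher, against 5.65% of all genes. Without Cfp1-cKO 1 the numbers were 14 of 15 tested, and without WT 1 they were 13 of 30, settings for which the share over all tested genes is not given here.

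**Figure D1:**
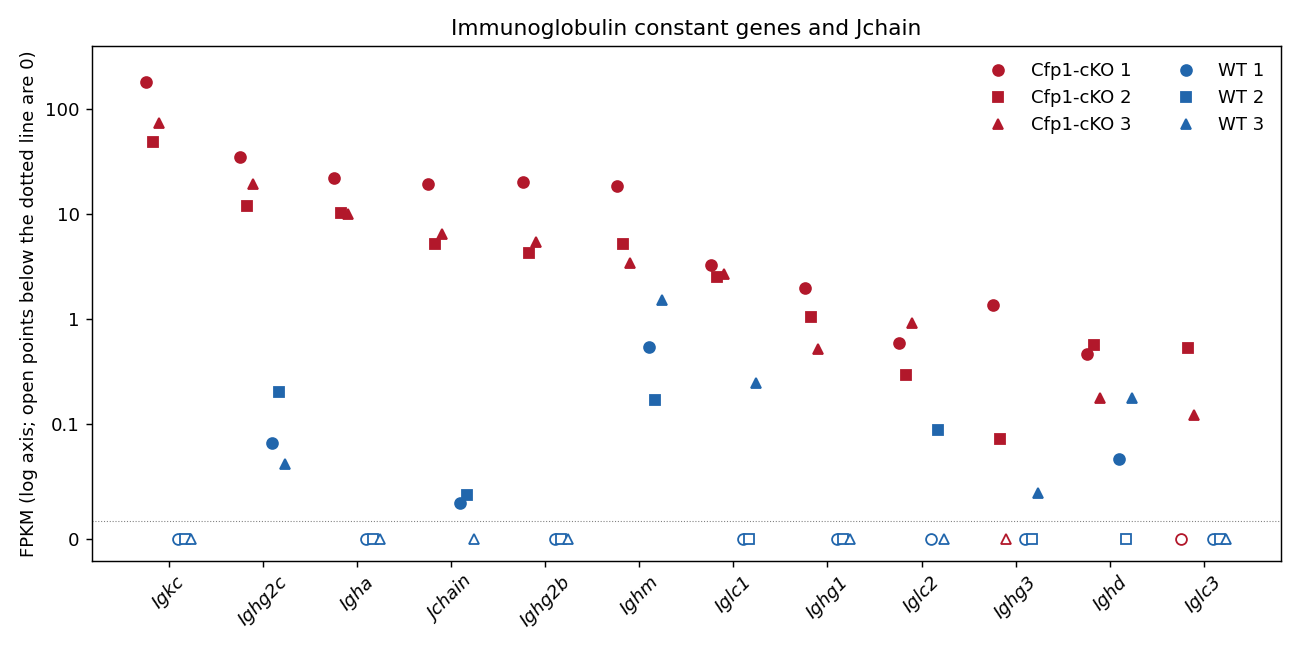
FPKM of the 11 constant genes and Jchain in each library on a log axis, Cfp1-cKO in red on the left and WT in blue on the right of each gene, with values of 0 drawn as open points below the dotted line. Igkc was at 48.9 FPKM or more in each Cfp1-cKO library and at 0 in each WT library, and Ighm is the constant gene with the highest WT values.

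Among the heavy constant genes, Ighg2c, Igha, Ighg2b and Ighm were called higher in Cfp1-cKO hearts. Ighg2c (ENSMUSG00000076612) encodes the constant part of IgG2c, an IgG2 form of C57BL/6 mice. It had 35.3, 11.9 and 19.4 FPKM in Cfp1-cKO hearts, against 0.0664, 0.200 and 0.0419 FPKM in WT hearts. The groups are far apart, and the WT values rest on 2, 5 and 1 fragments. The log2 fold change was 4.27 ± 0.33 (limma adjusted p = 0.000233). Igha (ENSMUSG00000095079), the constant gene of IgA, the antibody of mucosal surfaces, had 22.2, 10.1 and 9.99 FPKM in Cfp1-cKO hearts and was listed at 0 in the 3 WT libraries. With 1152, 451 and 480 fragments in Cfp1-cKO hearts, its summed level was at least 763-fold higher than the floor of 3 fragments over the WT group. Its log2 fold change was 3.82 ± 0.28 (limma adjusted p = 0.000182).

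Ighg2b (ENSMUSG00000076613), the constant gene of IgG2b, had 20.2, 4.30 and 5.37 FPKM in Cfp1-cKO hearts and was listed at 0 in the 3 WT libraries. It was at least 551-fold higher than the same kind of floor (258-fold without Cfp1-cKO 1), with a log2 fold change of 3.16 ± 0.45 (limma adjusted p = 0.00513). Its coding sequence is 87.6% identical to that of Ighg2c, above its identity to Ighg3 (77.8%) and Ighg1 (76.5%). Ighm (ENSMUSG00000076617), the constant gene of IgM, the class made first, had 18.5, 5.15 and 3.38 FPKM in Cfp1-cKO hearts, against 0.537, 0.169 and 1.53 FPKM in WT hearts. The groups do not overlap, but the gap between Cfp1-cKO 3 and WT 3 is narrow. The log2 fold change was 2.28 ± 0.52 (limma adjusted p = 0.0218), and the ratio of pooled fragments, scaled to the totals, was 13.0 with a 95% counting interval between 10.3 and 16.5. Without Cfp1-cKO 1 this ratio was 5.87, with an interval between 4.57 and 7.62. The call for Ighm was lost after median-of-ratios scaling, with no filter on low values, and without Cfp1-cKO 2 or WT 1.

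The other heavy constant genes were low and fell short of a mean of 1 FPKM. Ighg1, the constant gene of IgG1, had 1.96, 1.04 and 0.514 FPKM in Cfp1-cKO hearts and was listed at 0 in WT hearts. With the lower minimum of 0.1 FPKM it was called higher (log2 fold change 1.06, limma adjusted p = 0.0229). Ighg3, the constant gene of IgG3, rested on Cfp1-cKO 1, with 66 fragments there, 3 in Cfp1-cKO 2 and 0 in Cfp1-cKO 3, against 0, 0 and 1 in WT hearts. Ighd, the constant gene of IgD, which naive B cells carry beside IgM, had 0.459, 0.568 and 0.175 FPKM in Cfp1-cKO hearts, against 0.0464, 0 and 0.175 FPKM in WT hearts. Its groups met at Cfp1-cKO 3 and WT 3, each with 6 fragments, and it was not called with the lower minimum (limma adjusted p = 0.0771). Ighe, the constant gene of IgE, is not among the listed genes.

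Igkc (ENSMUSG00000076609), the constant gene of the kappa light chain, which most mouse antibodies carry, was the highest immunoglobulin gene by FPKM. It had 179.8, 48.9 and 74.2 FPKM in Cfp1-cKO hearts, from 1863, 434 and 711 fragments, and was listed at 0 in the 3 WT libraries. In WT hearts 3 fragments would have been worth 0.248, 0.299 and 0.313 FPKM, the highest levels a count of 0 allows there. The summed Cfp1-cKO level was at least 1102-fold higher than the floor of 3 fragments over the WT group (655-fold without Cfp1-cKO 1), and the log2 fold change was 6.46 ± 0.40 (limma adjusted p = 8.17e-05). Gm43291, a long noncoding RNA on the same strand that overlaps Igkc, had 1 fragment in Cfp1-cKO 1 and 1 in WT 2 and none elsewhere.

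The lambda light chain was rarer. Iglc1, a lambda constant gene, had 3.28, 2.51 and 2.69 FPKM in Cfp1-cKO hearts, against 0, 0 and 0.245 FPKM in WT hearts. The Cfp1-cKO libraries lay close together, unlike those of Igkc, and the log2 fold change was 1.83 ± 0.18 (limma adjusted p = 0.000735). Iglc2 had 0.587, 0.294 and 0.907 FPKM in Cfp1-cKO hearts, against 0, 0.0867 and 0 FPKM in WT hearts. Iglc3 had 0, 4 and 1 fragments in Cfp1-cKO hearts and none in WT hearts, and it shares a run of 79 bases with Iglc2. Jchain (ENSMUSG00000067149) had 19.4, 5.22 and 6.44 FPKM in Cfp1-cKO hearts, against 0.0175, 0.0211 and 0 FPKM in WT hearts. Its WT values stand for 1, 1 and 0 fragments, and its log2 fold change was 3.27 ± 0.39 (limma adjusted p = 0.00233).

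In the Cfp1-cKO libraries IgG took the largest share of the heavy constant signal, followed by IgA, and IgM took a smaller one. Per kilobase of exon, the 4 IgG genes took 58.9%, 52.1% and 65.1% of heavy constant FPKM in Cfp1-cKO 1, 2 and 3. IgA took 22.2%, 30.6% and 25.7%, IgM 18.5%, 15.6% and 8.71%, and IgD 0.460%, 1.72% and 0.451%. The switched classes together thus took 81.1%, 82.7% and 90.8%. Apart from IgD, the shares moved less between these libraries than the total did, which differed 3.35-fold between Cfp1-cKO 1 and Cfp1-cKO 2.

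The split between IgG and IgA depends on the length that a fragment count is divided by. Each heavy constant gene has 2 annotated transcripts, and their joined exons span 1326 bases for Ighg2c, 2668 for Igha and 2678 for Ighg2b, while the shortest transcripts are of 1111, 1100 and 1114 bases. By fragments alone, IgG took 53.5%, 44.3% and 55.4% of the heavy constant fragments in Cfp1-cKO 1, 2 and 3, so that it was under 50% in Cfp1-cKO 2. IgA took 29.0%, 39.8% and 35.6%, with 95% exact binomial intervals between 27.6% and 30.4%, between 36.9% and 42.7%, and between 33.0% and 38.2%. These intervals cover counting error only. Igha exceeded Ighg2c by fragments in each Cfp1-cKO library, with 1152, 451 and 480 fragments against 911, 262 and 464, and by FPKM Ighg2c exceeded Igha in each. Which of the pair was the more abundant transcript is therefore not settled by these values. The order of Igkc above every heavy constant gene in FPKM holds in each Cfp1-cKO library. By fragments Igha exceeded Igkc in Cfp1-cKO 2, with 451 against 434.

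**Figure D2:**
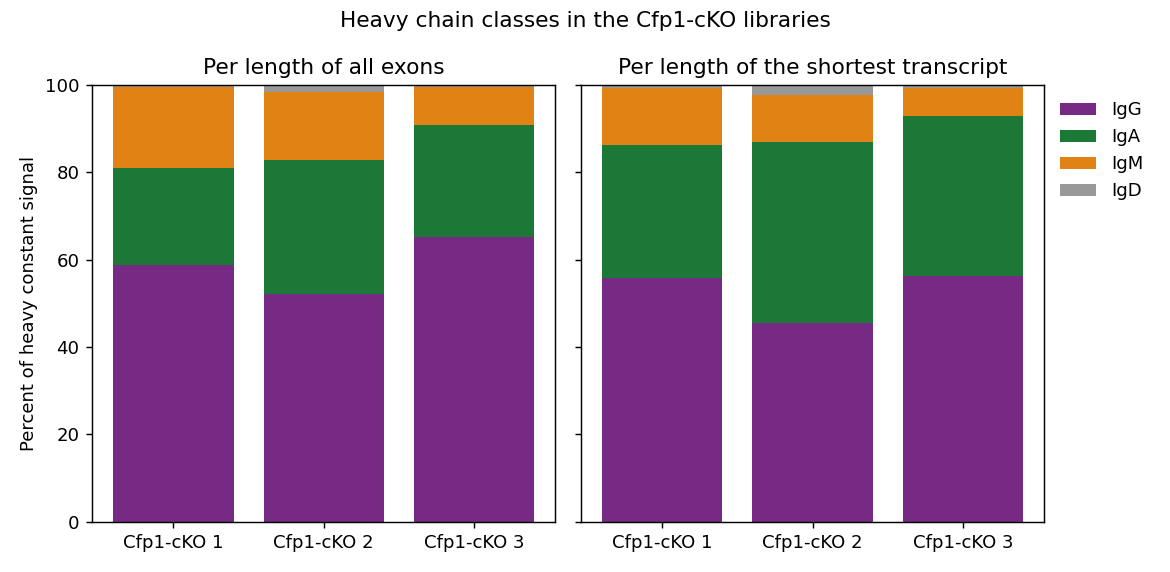
Shares of IgG, IgA, IgM and IgD in the heavy constant signal of each Cfp1-cKO library, stacked to 100%, per length of all joined exons on the left and per length of the shortest annotated transcript on the right. IgG takes between 52.1% and 65.1% on the left and between 45.6% and 56.4% on the right, and IgA is larger on the right in each library.

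Kappa carried nearly all of the light constant signal, with 97.9%, 93.6% and 95.2% of the FPKM of Igkc, Iglc1, Iglc2 and Iglc3 in Cfp1-cKO 1, 2 and 3. The lambda constant sum was nearly even over these libraries, at 3.87, 3.33 and 3.72 FPKM, while Igkc varied 3.67-fold and Jchain 3.71-fold.

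Variable genes of all loci were detected in Cfp1-cKO hearts. Of the 84 heavy variable genes, 63, 58 and 53 were above 0 in Cfp1-cKO 1, 2 and 3, against 1, 2 and 2 in WT 1, 2 and 3. Of the 81 kappa variable genes, 55, 63 and 59 were above 0 in the Cfp1-cKO libraries and 0, 2 and 1 in the WT libraries. The 3 lambda variable genes were above 0 in every Cfp1-cKO library and in no WT library. Heavy variable genes took 796, 194 and 249 fragments in Cfp1-cKO hearts and 1, 2 and 3 in WT hearts. Kappa variable genes took 1498, 363 and 535 fragments in Cfp1-cKO hearts and 0, 2 and 1 in WT hearts, so that both loci followed the order of the totals.

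**Figure D3:**
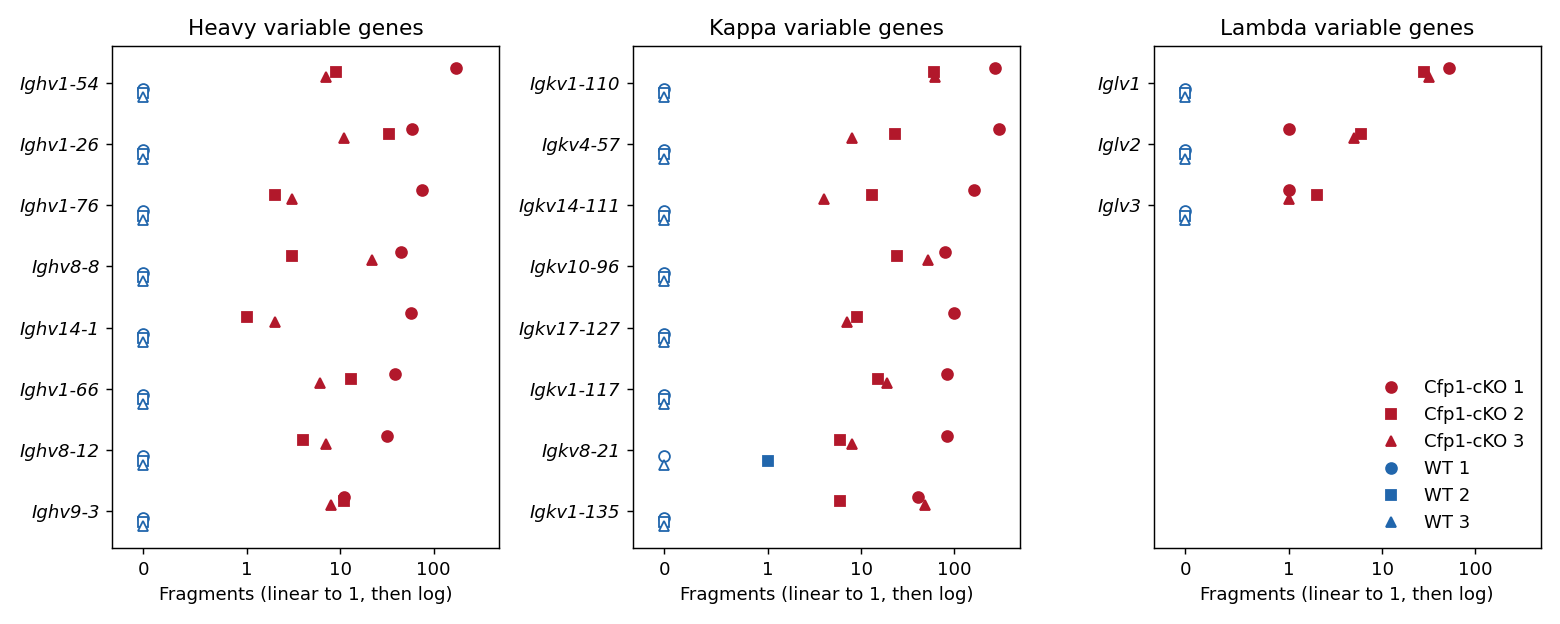
Fragments in each library for the 8 heavy and 8 kappa variable genes with the highest mean FPKM and for the 3 lambda variable genes, with Cfp1-cKO in red above WT in blue, on an axis that is linear up to 1 fragment and logarithmic beyond. WT libraries are at 0 for these genes apart from 1 fragment of Igkv8-21 in WT 2, and for Igkv4-57, Ighv1-54 and Ighv14-1 the Cfp1-cKO 1 point lies far to the right of the other Cfp1-cKO points.

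The most abundant heavy variable genes differed between the Cfp1-cKO libraries. Ighv1-54 had 23.8, 1.43 and 1.03 FPKM in Cfp1-cKO hearts and was listed at 0 in WT hearts. Cfp1-cKO 1 alone set its mean, and it was not called (log2 fold change 2.31 ± 0.82, limma adjusted p = 0.0684). Ighv1-26 had 8.63, 5.64 and 1.74 FPKM in Cfp1-cKO hearts and was listed at 0 in WT hearts, and was called higher (log2 fold change 2.48 ± 0.40, limma adjusted p = 0.00742). Ighv8-8 had 6.45, 0.503 and 3.41 FPKM in Cfp1-cKO hearts and was listed at 0 in WT hearts, with 2 of the 3 Cfp1-cKO libraries well above the other. It was called higher (log2 fold change 1.88, limma adjusted p = 0.0314), as were Ighv1-66 (1.68, adjusted p = 0.0210) and Ighv8-12 (1.43, adjusted p = 0.0375). Ighv1-76 had 76, 2 and 3 fragments and Ighv14-1 had 57, 1 and 2 in Cfp1-cKO hearts, and neither was called. Ighv9-3 was even, with 11, 11 and 8 fragments in Cfp1-cKO hearts and none in WT hearts. Of the 7 heavy variable genes that reached a mean of 1 FPKM, 4 were called higher, against 21.1% of all tested genes. They reached that mean through their Cfp1-cKO values, so this count only describes them. The call for Ighv1-66 was lost under 4 of 12 alternatives, for Ighv8-8 under 5 of 12 and for Ighv8-12 under 6 of 11, and for all 3 with no filter on low values and without WT 1. Without Cfp1-cKO 1 all 3 fell short of a mean of 1 FPKM and were not tested, and Ighv8-12 was also not tested after median-of-ratios scaling.

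Among kappa variable genes, Igkv1-110 had 34.4, 9.12 and 8.58 FPKM in Cfp1-cKO hearts and was listed at 0 in WT hearts. All 3 Cfp1-cKO libraries were well above 0 and Cfp1-cKO 1 was the highest. Its pooled level was at least 144-fold higher than the floor of 3 fragments over the WT group (70.4-fold without Cfp1-cKO 1), and its log2 fold change was 3.92 ± 0.45 (limma adjusted p = 0.00179). Igkv4-57 had 43.6, 3.92 and 1.26 FPKM in Cfp1-cKO hearts and was listed at 0 in WT hearts. It had the highest value of any variable gene in Cfp1-cKO 1 and 8 fragments in Cfp1-cKO 3, and its call (log2 fold change 2.98 ± 0.90, limma adjusted p = 0.0454) was lost under 8 of 13 alternatives, where its adjusted p reached 0.124. Igkv10-96 had 11.4, 4.01 and 8.04 FPKM in Cfp1-cKO hearts and was listed at 0 in WT hearts, with a log2 fold change of 3.05 ± 0.30 (limma adjusted p = 0.000819). It was the most even of the 3, and its sequence is 95.4% identical to that of Igkv10-94.

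Other kappa variable genes showed the same kind of spread. Igkv14-111 had 162, 13 and 4 fragments in Cfp1-cKO hearts and none in WT hearts, and was not called (limma adjusted p = 0.0702). Igkv17-127 had 100, 9 and 7 fragments in Cfp1-cKO hearts and none in WT hearts (a log2 fold change of 2.11, limma adjusted p = 0.0485), and its call was lost under 8 of 12 alternatives. Without Cfp1-cKO 1 it fell short of a mean of 1 FPKM and was not tested. Igkv8-21 had 84, 6 and 8 fragments in Cfp1-cKO hearts and 0, 1 and 0 in WT hearts, and was not called (limma adjusted p = 0.0598). These 3 genes were high in Cfp1-cKO 1 only. Igkv1-135 went another way, with 41, 6 and 48 fragments in Cfp1-cKO hearts and none in WT hearts (a log2 fold change of 2.19, limma adjusted p = 0.0175). Its call was lost with no filter on low values and without Cfp1-cKO 1, Cfp1-cKO 3 or WT 1, with adjusted p up to 0.0527 by limma. Igkv3-2, with 10, 11 and 50 fragments in Cfp1-cKO hearts and none in WT hearts, was highest in Cfp1-cKO 3. Igkv1-117, a near copy of Igkv1-110, had 84, 15 and 19 fragments in Cfp1-cKO hearts and none in WT hearts (a log2 fold change of 2.36, limma adjusted p = 0.0119). Of the 12 kappa variable genes that reached a mean of 1 FPKM, 10 were called higher, against 21.1% of all tested genes. These 12 also reached that mean through their Cfp1-cKO values, so the count only describes them.

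Iglv1, the leading gene of the small lambda locus of the mouse, had 6.83, 4.30 and 4.54 FPKM in Cfp1-cKO hearts and was listed at 0 in WT hearts. Its Cfp1-cKO values were close to each other, and its log2 fold change was 2.61 ± 0.19 (limma adjusted p = 0.000181). Iglv2 had 1, 6 and 5 fragments and Iglv3 had 1, 2 and 1 in Cfp1-cKO hearts, and both had none in WT hearts. Iglv1 took 96.3%, 77.8% and 84.2% of the lambda variable fragments in Cfp1-cKO 1, 2 and 3, of 54, 36 and 38 fragments.

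The use of variable genes was spread over many genes, and the leading heavy variable gene was a different one in each Cfp1-cKO library. The leading heavy variable gene was Ighv1-54 in Cfp1-cKO 1, with 22.0% of the heavy variable fragments (95% exact binomial interval between 19.2% and 25.0%). It was Ighv1-26 in Cfp1-cKO 2, with 17.0% (between 12.01% and 23.1%), and Ighv1-72 in Cfp1-cKO 3, with 9.64% (between 6.27% and 14.0%). Ighv1-54 took 4.64% in Cfp1-cKO 2 and 2.81% in Cfp1-cKO 3. The intervals cover counting error in 1 library, and no test between libraries was run. Ighv1-72 had 1, 2 and 24 fragments over the 3 Cfp1-cKO libraries. The leading kappa variable gene was Igkv4-57 in Cfp1-cKO 1, with 19.96% (between 18.0% and 22.1%), and Igkv1-110 in Cfp1-cKO 2 and 3, with 16.8% and 11.6%. Of the 10 most abundant heavy variable genes of each Cfp1-cKO library, 3 were among the 10 of all 3 libraries, and of the kappa variable genes likewise 3.

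Cfp1-cKO 1 was the most uneven library. Its 10 leading genes took 68.5% of the heavy and 81.1% of the kappa variable fragments. In Cfp1-cKO 2 they took 50.5% and 55.1%, and in Cfp1-cKO 3 49.8% and 62.6%. The effective number of genes, which is the inverse of the summed squared shares, was 12.4, 19.9 and 25.0 for heavy and 9.82, 19.1 and 18.4 for kappa variable genes in Cfp1-cKO 1, 2 and 3. Cfp1-cKO 1 was also the deepest in these genes, so the number of genes seen was set to a common depth. At 194 fragments, 42.8, 58.0 and 49.5 heavy variable genes are expected in Cfp1-cKO 1, 2 and 3. At 363 fragments, 39.6, 63.0 and 54.7 kappa variable genes are expected. Cfp1-cKO 1 thus held the fewest genes at equal depth although it held the most fragments. These are counts from 1 library each, with no replicate of a library.

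**Figure D4:**
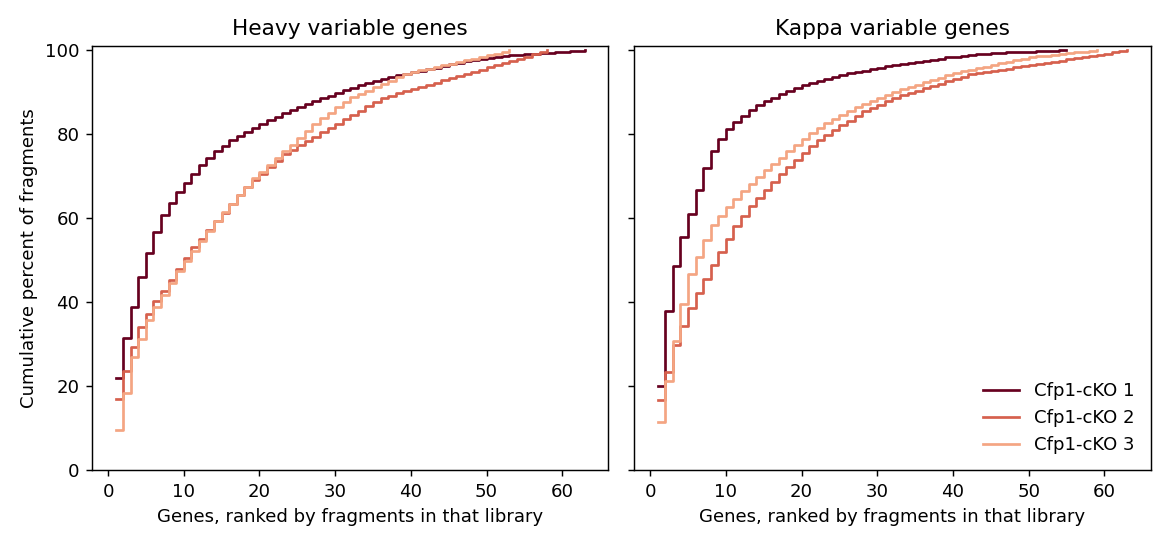
Cumulative percent of the variable gene fragments of each Cfp1-cKO library, with genes ranked by their fragments in that library, for heavy genes on the left and kappa genes on the right. The line of Cfp1-cKO 1 lies above the others over the leading genes, reaching 68.5% and 81.1% at the tenth gene.

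By family, the large Ighv1 family of 43 listed genes took 63.9%, 59.3% and 61.0% of the heavy variable fragments in Cfp1-cKO 1, 2 and 3. These shares were close to each other, although the leading genes within the family were not the same. Ighv14 took 11.7%, 3.61% and 4.02%, and Ighv8 took 9.67%, 4.64% and 12.05%. Among kappa families, Igkv1 was even at 26.4%, 23.1% and 24.5%, Igkv4 took 25.4%, 17.1% and 15.7%, and Igkv3 took 4.47%, 10.2% and 18.3%. The order of Igkv4 and Igkv3 was thus not the same in each library, with Igkv3 above Igkv4 in Cfp1-cKO 3 only.

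Variable and constant fragments stood in a nearly fixed ratio in the Cfp1-cKO libraries. For 100 heavy constant fragments there were 20.02, 17.1 and 18.5 heavy variable fragments in Cfp1-cKO 1, 2 and 3. For 100 Igkc fragments there were 80.4, 83.6 and 75.2 kappa variable fragments, and for 100 lambda constant fragments 150.0, 138 and 115 lambda variable fragments. In WT hearts the pooled libraries held 6 heavy variable fragments beside 98 heavy constant ones, and 3 kappa variable fragments beside 0 of Igkc.

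The joining and diversity segments are very short, so 1 fragment is worth much in FPKM. Igkj5 had 1 fragment in each Cfp1-cKO library (1.22, 1.43 and 1.32 FPKM) and none in WT hearts, and Igkj2 had 5 fragments in Cfp1-cKO 1 and none elsewhere. Igkj3 had 2, 0 and 2 fragments and Igkj4 had 1, 0 and 0 in Cfp1-cKO hearts, and none in WT hearts. Ighj3 had 1, 0 and 2 fragments in Cfp1-cKO hearts and Ighj1 1, 0 and 0, with none in WT hearts, and Iglj1 and Iglj3p had 1 fragment each, both in Cfp1-cKO 2. Ighj4 was seen in WT only, with 1, 0 and 1 fragments, as was Ighd2-4, with 1 fragment in WT 3 that makes 3.27 of the 6.94 FPKM summed over all immunoglobulin genes there. Nothing can be compared at these counts, and how fragments that span 2 genes were counted is not given in the sources used here.

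In WT hearts the immunoglobulin fragments were mostly those of Ighm. The 3 WT libraries together held 115 immunoglobulin fragments, of which 81 were Ighm, 8 Ighg2c, 8 Ighd, 3 lambda constant and 9 variable. The 9 variable fragments came from 8 genes, at most 2 from a gene, and Ighv1-71, Igkv13-85 and Ighv3-6 had the highest WT means. Ighm took 678 of 3976, 162 of 1133 and 115 of 1348 heavy constant fragments in Cfp1-cKO 1, 2 and 3, and 23 of 27, 6 of 11 and 52 of 60 in WT 1, 2 and 3. In percent of heavy constant fragments Ighm took 17.1%, 14.3% and 8.53% in Cfp1-cKO hearts and 85.2%, 54.5% and 86.7% in WT hearts. The groups do not overlap in this share, which rests on few fragments in WT hearts and was not tested.

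Genes of B cells were low in both groups. Of 26 listed B cell genes, 2 reached a mean of 1 FPKM and neither was called (Ly86 and Ebf1), and with the minimum of 0.1 FPKM 17 were tested and 4 called higher (Cd79a, Cd79b, Blk and Vpreb3), where 14.9% of all genes tested with that minimum were called higher. Cd79a, a signalling chain of the B cell receptor, had 1.09, 0.535 and 0.419 FPKM in Cfp1-cKO hearts, against 0.0605, 0.0364 and 0.191 FPKM in WT hearts (a log2 fold change of 0.60 with that minimum, limma adjusted p = 0.0405). Cd79b, its partner, had 1.11, 1.47 and 0.970 FPKM in Cfp1-cKO hearts, against 0.0924, 0.297 and 0.349 FPKM in WT hearts (a log2 fold change of 0.81, limma adjusted p = 0.0152). The groups do not overlap for either gene. Ms4a1, which encodes CD20, had 0.0830, 0.204 and 0.0538 FPKM in Cfp1-cKO hearts, against 0, 0.0257 and 0.0359 FPKM in WT hearts. Of 7 listed genes of early B cell development 3 were in the table and none reached a mean of 1 FPKM, and Rag1, an enzyme of the joining of segments, had 0, 0.00908 and 0 FPKM in Cfp1-cKO hearts, against 0, 0 and 0.00840 FPKM in WT hearts. Of 5 listed genes tied to class switching, 3 were tested and 1 called higher, against 21.1% of all tested genes. This was Apobec1, a deaminase better known for editing RNA, and its call was lost under 4 of 13 alternatives.

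Genes of plasma cells moved in part. Of 14 listed, 6 were tested and 5 called higher, against 21.1% of all tested genes, and several of the 14 serve secretion in many cell types. Every Cfp1-cKO value lay above every WT value for 10 of the 14, against 33.1% of all genes in the table. Sdc1, which encodes the plasma cell surface marker CD138 and is also made by epithelia, had 6.45, 11.7 and 12.8 FPKM in Cfp1-cKO hearts, against 1.67, 2.15 and 1.85 FPKM in WT hearts (a log2 fold change of 1.93 ± 0.24, limma adjusted p = 0.00268). Its order over the Cfp1-cKO libraries, lowest in Cfp1-cKO 1, is not that of the immunoglobulin genes. Txndc5, Creld2, Fkbp11 and Edem2, proteins of the endoplasmic reticulum, were called with log2 fold changes between 0.79 and 0.93. After median-of-ratios scaling these 4 had log2 fold changes between 0.42 and 0.48 and none was called, and over all 13 alternatives their calls were lost under 3, 6, 5 and 3. Xbp1, a regulator of antibody secretion, had 17.5, 22.1 and 19.1 FPKM in Cfp1-cKO hearts, against 15.1, 19.2 and 14.3 FPKM in WT hearts and was not called (limma adjusted p = 0.247). Mzb1, a folding factor of IgM, had 1.08, 0.862 and 1.10 FPKM in Cfp1-cKO hearts, against 0.341, 1.17 and 0.675 FPKM in WT hearts, so that the groups overlap. They also overlap for Prdm1 and Tnfrsf17. Irf4, Slamf7 and Derl3 were low, and their groups do not overlap. These genes had 72, 31 and 15 fragments over the Cfp1-cKO libraries and 10, 2 and 2 over the WT libraries.

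Receptors that bind or carry antibody were also examined. Of 14 listed, 8 were tested and 4 called higher, against 21.1% of all tested genes, namely the Fc receptor genes Fcgr3, Fcgr2b, Fcgr4 and Fcer1g, with log2 fold changes of 0.65, 0.80, 0.64 and 0.79. Of 13 alternatives, the call was lost for Fcgr3 under 8, for Fcgr2b under 8, for Fcgr4 under 11 and for Fcer1g under 2, in each case also after median-of-ratios scaling. Fcgrt, the neonatal Fc receptor that takes up and recycles IgG, had 31.1, 29.0 and 29.2 FPKM in Cfp1-cKO hearts, against 29.0, 19.1 and 26.0 FPKM in WT hearts and was not called (limma adjusted p = 0.244), nor was B2m, its light chain partner (log2 fold change 0.52, limma adjusted p = 0.125). Pigr, which moves IgA and IgM polymers across epithelia, had 1.71, 0.462 and 1.13 FPKM in Cfp1-cKO hearts and was listed at 0 in WT hearts, and was called higher with the minimum of 0.1 FPKM (log2 fold change 1.03 ± 0.21, limma adjusted p = 0.0210). Of 12 listed genes for B cell survival and attraction, 11 were in the table, and 1 was tested and called, Cxcl12, with 21.1, 20.7 and 11.5 FPKM in Cfp1-cKO hearts, against 5.62, 3.15 and 10.3 FPKM in WT hearts (a log2 fold change of 1.42, limma adjusted p = 0.0299). Its call was lost under 7 of 13 alternatives. Cxcl13, which draws B cells, had 1.16, 0.261 and 0.241 FPKM in Cfp1-cKO hearts, against 0, 0.138 and 0 FPKM in WT hearts, without overlap and without a call at the minimum of 0.1 FPKM (limma adjusted p = 0.107).

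Pan-leukocyte genes and Trac were called higher as well, with smaller log2 fold changes than Igkc. The pan-leukocyte list had 6 of 6 tested genes called higher, against 21.1% of all tested genes, among them Laptm5, Coro1a and Lcp1, with log2 fold changes of 1.52, 1.28 and 1.26. Ptprc, which encodes the pan-leukocyte protein CD45, had 0.824, 0.901 and 1.01 FPKM in Cfp1-cKO hearts, against 0.291, 0.238 and 0.321 FPKM in WT hearts. The 7 constant genes of the T cell receptor, the antigen receptor of T cells, summed to 4.49, 4.22 and 3.92 FPKM in Cfp1-cKO hearts and to 0.669, 0.360 and 1.28 FPKM in WT hearts. Trac, the constant gene of the alpha chain, was called higher (log2 fold change 1.23 ± 0.19, limma adjusted p = 0.00624). The immunoglobulin constant sum was 63.1, 20.2 and 29.8 times the T cell receptor constant sum in Cfp1-cKO hearts and 0.972, 1.26 and 1.58 times in WT hearts. The groups do not overlap in this ratio, and no test was run on it. Trac was the only gene of the 14 on the T cell list to reach a mean of 1 FPKM. Of 10 listed thymocyte genes, 8 were in the table, 2 were tested and neither was called. Of 7 listed erythroid genes, 5 were tested and none was called, with a median log2 fold change of 2.15. Without WT 2, Hba-a1, Hba-a2, Hbb-bs and Hbb-bt, which encode haemoglobin chains, were called higher. The FPKM of the 7 summed to 1194, 1892 and 233 in Cfp1-cKO hearts and to 59.8, 1007 and 102 in WT hearts, so that red cell transcripts did not follow the order of the immunoglobulin genes.

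The order of the Cfp1-cKO libraries was compared over these genes, as a description over 3 libraries. All immunoglobulin genes summed to 641, 191 and 252 FPKM in Cfp1-cKO 1, 2 and 3, and Igkc and Jchain kept this order. Scgb1a1, a secretoglobin of the airways, had 2904, 405 and 671 FPKM in Cfp1-cKO 1, 2 and 3, against 0, 1.45 and 0 FPKM in WT hearts. Foxj1, the regulator of ciliated cells, had 2.52, 0.320 and 0.995 FPKM in Cfp1-cKO 1, 2 and 3 against 0.0336, 0.0202 and 0.0847 FPKM in WT hearts, and with Pigr it ran in the same order as the immunoglobulin genes. Other airway secretoglobins did not keep this order. Scgb3a1 had 4.03, 14.8 and 35.1 FPKM in Cfp1-cKO 1, 2 and 3, against 0.368, 2.93 and 0.186 FPKM in WT hearts. Scgb3a2 had 24.3, 12.4 and 12.1 FPKM in Cfp1-cKO 1, 2 and 3, against 0, 0.0603 and 0 FPKM in WT hearts. Scgb3a1 was thus lowest in Cfp1-cKO 1 and Scgb3a2 highest there. Sftpc, a surfactant gene of alveolar cells, was also lowest in Cfp1-cKO 1, with 1202, 2163 and 3232 FPKM in Cfp1-cKO 1, 2 and 3 against 0, 0.330 and 0 FPKM in WT hearts. Of the lung epithelium list, Sftpb, Sftpa1, Sftpd, Napsa, Lamp3, Slc34a2, Cldn18, Nkx2-1 and Cxcl15 were likewise lowest in Cfp1-cKO 1 and highest in Cfp1-cKO 3. Sftpb, for example, had 179, 289 and 400 FPKM in Cfp1-cKO 1, 2 and 3. Scgb1a1 and Foxj1 were the only genes of that list in the order of the immunoglobulin genes. The T cell receptor constant sum differed 1.15-fold and Ptprc 1.23-fold between the highest and the lowest Cfp1-cKO library, where all immunoglobulin genes differed 3.35-fold. All 13 tested lung epithelium genes were called higher, against 21.1% of all tested genes, and Sftpc, Scgb1a1, Sftpb and Sftpa1 were at or near 0 in WT hearts. Most of the 13 reached the mean of 1 FPKM only through their Cfp1-cKO values, so this count describes them. Whether these transcripts and the immunoglobulin transcripts have a common source was not tested.

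**Figure D5:**
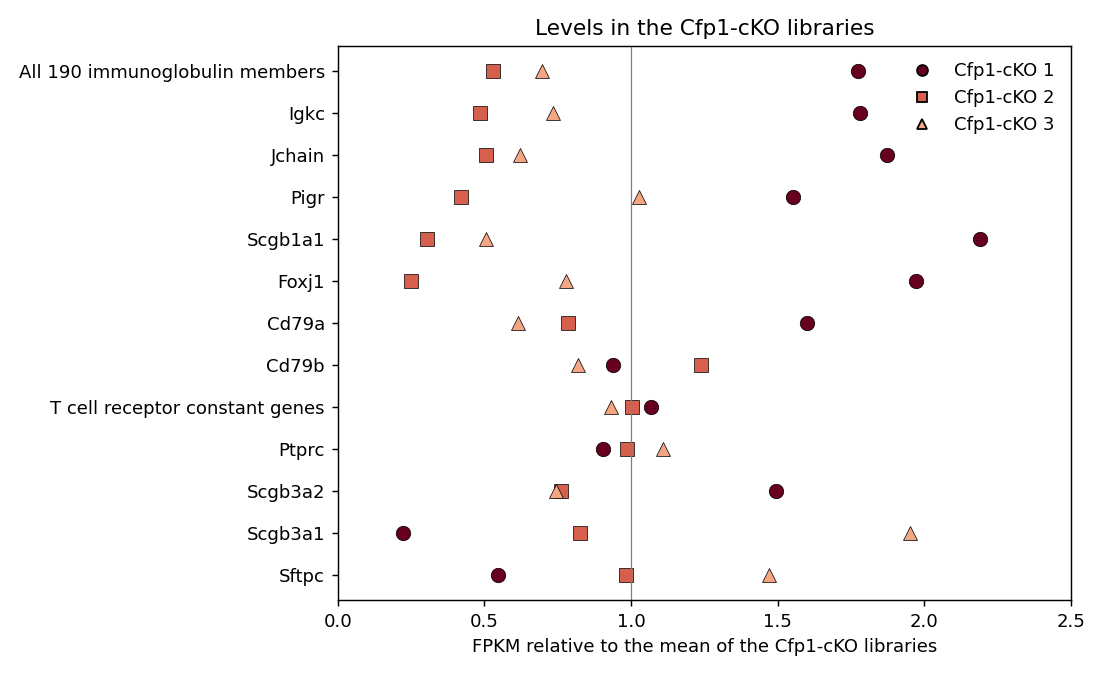
FPKM in each Cfp1-cKO library relative to the mean of the 3 Cfp1-cKO libraries, for the immunoglobulin sum, Igkc, Jchain and genes named beside them, with the vertical line at 1. Cfp1-cKO 1 is the highest library for the immunoglobulin sum, Igkc, Jchain, Pigr, Scgb1a1, Scgb3a2, Foxj1 and Cd79a, lies near 1 for the T cell receptor constant genes, Ptprc and Cd79b, of which Cd79b is highest in Cfp1-cKO 2, and lies farthest below 1 for Sftpc and Scgb3a1.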

How the data were processed

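TruSeq libraries of 6 heart samples, 3 Cfp1-cKO and 3 WT, were sequenced. The authors deposited FPKM values per gene, which were used as deposited, and the tables also hold gene annotation. The paper names Bowtie2, TopHat and DESeq with the address of a chicken genome, and the submitters' processing notes name CASAVA, Bowtie2 2.2.3, HISAT2 2.1.0, TopHat2, HTSeq 0.6.0, DESeq2 and GRCm38. How fragments that span genes or match several genes were counted, and whether strand was used, is not given in the sources used here. A retina step in the extraction text has no counterpart in these heart samples. No column of the authors' own comparisons was used.

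The members of the gene set and the companion lists were chosen with earlier results of these data known. Fragments were worked back from the steps of the FPKM values with gene lengths of GENCODE release M21, and came out whole, within a tolerance of 0.02 (0.005 with another length), for 99.99% of genes. Their sum over genes was 100.4% to 100.7% of the library totals. Replicates differed by more than sampling noise in each pair (chi-square per degree of freedom 31.4 to 79.8, genes with 20 or more fragments).

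The test was limma-trend (limma 3.58.1, R 4.3.3) of log2(FPKM + 1) over genes averaging 1 FPKM or more, and p-values were adjusted by Benjamini-Hochberg over all of them. The procedure was tested on simulated data. The simulation gave all genes the same spread and was not set to the immunoglobulin genes, so it does not bear on their calls. Where WT held no fragment, a fold is given as a lower bound against 3 fragments over the WT group. Intervals (95%, exact) and floors cover counting error only. Alternatives were a pseudocount of 0.1, a minimum mean of 0.1 FPKM and none, median-of-ratios scaling, the replicate number as a block, no trend, voom on the fragments, shares by fragments, and each library left out. Shares by the length of the shortest transcript, and pooled ratios without each Cfp1-cKO library, were added after seeing the data. Genes were named by a rule that took all constant genes and Jchain, the 8 highest variable genes of each locus, segments above 0, the 3 variable genes highest in WT, and up to 5 genes of each companion list with a few defining markers. Cxxc1, genes named for shared sequence, Ighv1-72, Igkv3-2, Foxj1, Scgb3a1, Scgb3a2, Vpreb3, Edem2, Fcgr2b, Fcgr4 and Gm43291 fall outside it and were named after their values were seen. So were Sftpd, Napsa, Lamp3, Slc34a2, Cldn18, Nkx2-1, Irf4, Slamf7, Derl3, Prdm1 and Tnfrsf17. Values of a few companion genes named by this rule were left out of the text. Other steps used Python 3.11.15, pandas 2.3.3, numpy 2.4.6, scipy 1.17.1 and matplotlib 3.10.9.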

Additional observations from a re-analysis of the deposited data

How the results depend on the processing

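The number of immunoglobulin genes called higher was 22 of 27 tested, against 21.1% of all tested genes. It was 50 of 139 with a minimum mean of 0.1 FPKM, against 14.9%, and 15 of 26 after median-of-ratios scaling. When a library was left out it was between 13 and 19 (14 without Cfp1-cKO 1, 13 without WT 1). The pseudocount of 0.1 and voom each called 25, no filter 31 of 190 and no trend 22. Over all genes tested, voom called 23.6% higher and no filter 5.65%, and the share is not given here for the other settings. The scaling moved the median log2 fold change of all tested genes to -0.08 where it was 0.35 before. None of the 23 named immunoglobulin genes with a mean of 1 FPKM or more turned its direction under the alternatives in which it was tested, and Igkc, Igha, Ighg2b, Ighg2c, Jchain, Iglc1, Iglv1, Igkv1-110, Igkv10-96 and Ighv1-26 kept their calls under all of them. Companion genes called in either direction numbered 36 of 59 tested, among them 5 cardiomyocyte genes called lower. Over all tested genes 21.1% were called higher and 1.68% lower. The companion number was 22 after scaling and between 19 and 35 when a library was left out (19 without Cfp1-cKO 2, 23 without WT 1). The mean share of IgA in the Cfp1-cKO libraries was 26.2% by FPKM, 34.8% by fragments and 36.1% by the shortest transcript, and that of IgG was 58.7% by FPKM and 51.1% by fragments, where the lengths used differ by construction. With the replicate number as a block, 19 immunoglobulin genes and 31 companion genes were called. Samples with the same number shared little, with correlations of their deviations of 0.11, 0.04 and 0.10, and no source ties them. At these depths 3 fragments limit what a count of 0 in WT can show, and low variable genes rest on a few fragments.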
